A study of Rattus norvegicus with 12 samples.

Results

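The mRNA levels of 9 genes best known from enteric and other peripheral neurons were followed in rat mesenteric lymph nodes (MLN). The genes were Gal, Vip, Npy and Tac1, which encode neuropeptides, Prph, Gap43 and Stmn2 of the axon cytoskeleton, and Uchl1 and Syt1 of the neuron body and the nerve ending. They were chosen by symbol, and every probe set that the platform annotation gives to 1 of these symbols was taken. A probe set is a group of short probes on the array that reads 1 transcript. The choice gave 11 probe sets of 9 genes, out of 31042 probe sets tested and 14217 genes. Gap43 and Stmn2 each had 2 probe sets and the other genes had 1.

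Wistar pups were studied at day 21, with 3 pups and 1 array per pup in each of 4 groups. Dams of group A received a diet with 1% conjugated linoleic acid (CLA), a mixture of 80% c9,t11 and 20% t10,c12 isomers, for 2 weeks of gestation and through 3 weeks of suckling, so that these pups took CLA from milk. Dams of group B received the CLA diet in gestation and standard diet in suckling, when the pups themselves were gavaged each day with 1.5 mg CLA oil per g of body weight. Group C had standard-diet dams and the same gavage for 3 weeks, and group D had standard-diet dams and no CLA. All groups thus share strain, age and tissue. The litters of the 12 pups, and whether groups A and D received a gavage without CLA, are not given in the sources used here. Groups A, B and C were all compared with the same 3 arrays of group D.

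Enteric neurons form the ganglia of the gut wall and drive its muscle, secretion and blood flow, and sympathetic and sensory fibres enter the mesentery and lymphoid organs along vessels. Their peptides are made as precursors, packed into dense core granules and released to act on G protein-coupled receptors of muscle, epithelium and immune cells. Peripherin and the growth-associated proteins mark long peripheral axons. The arrays measured RNA of whole nodes, in which the soma of an enteric neuron is not a usual resident, and the signal does not show which cells carried it. Fewer cells of a type and less RNA per cell cannot be told apart in such samples.

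Levels are log2 intensities after quantile normalization, and 1 unit is a 2-fold change. The background of an array, taken from 27 probe sets for transcripts that were not added, lay between 2.33 and 3.20 on this scale. Npy, Prph, Uchl1 and the probe set of Stmn2 with the higher mean were above it on 12 of 12 arrays. Gap43 was above it on 10 arrays, Gal and Syt1 on 8, Vip on 6 and Tac1 on 1. The second probe set of Stmn2 was above background on 11 arrays and that of Gap43 on 0. These are low signals: the mean of Uchl1 stood at percentile 52.3 of all probe sets tested, Gal at 36.3 and Tac1 at 6.66.

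Group D replicate 3 stood apart from the other arrays of its group. Across all probe sets, which are not independent, its mean correlation was 0.931 with group B, 0.930 with group C, 0.884 with group A and 0.896 with group D replicates 1 and 2. In all 9 genes its level lay inside the range of the 9 arrays with CLA. Replicates 1 and 2 were above every array with CLA in 7 of the 9 genes, the exceptions being Tac1 and Syt1. The same held for 6.12% of all probe sets tested. Results for the 9 genes are therefore given with group D replicate 3 and without it, a choice made after seeing the data. For other genes the fit without it is given only for some of those whose call it ended or made. No label marks this animal as different.

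**Figure D1:**
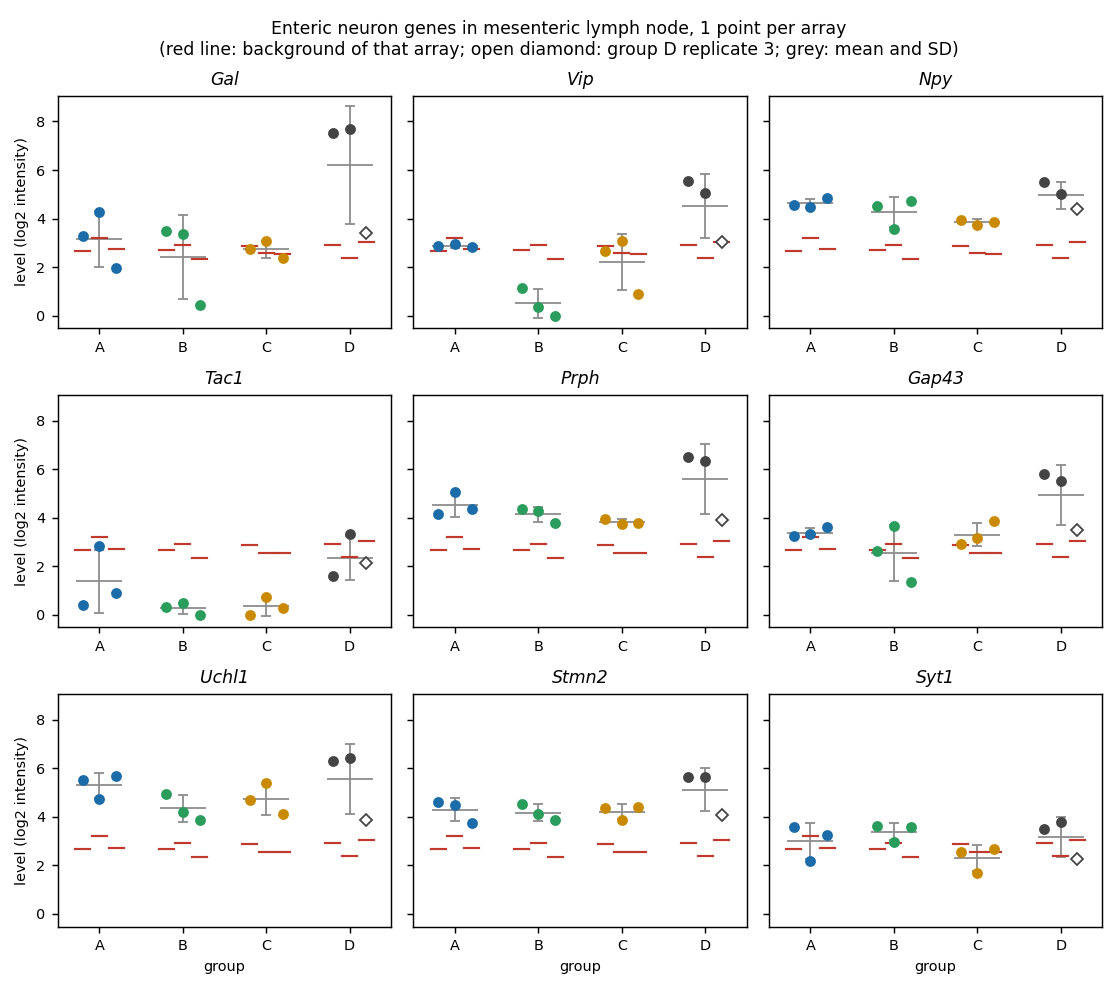
Level of each gene (log2 intensity, vertical axis) in the 3 arrays of groups A, B, C and D, with grey bars for the group mean and SD and a red line for the background of each array. Gal is at 7.53 and 7.67 in group D replicates 1 and 2 and at 3.39 in replicate 3, the open diamond, which lies among the arrays with CLA in every panel.

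Among the peptides, Gal showed the widest range. It encodes galanin, a peptide that slows transmitter release and modulates gut motility. Its levels were 7.53, 7.67 and 3.39 in group D, 3.30, 4.25 and 1.95 in A, 3.49, 3.38 and 0.43 in B and 2.77, 3.07 and 2.38 in C. Group D replicates 1 and 2 were far above all other arrays, while replicate 3 overlapped with groups A and B, and the signal was above background on 2 arrays of group A, 2 of group B and 1 of group C. The difference from group D was -3.03 in group A (standard error 1.10, 95% interval -5.41 to -0.65, limma adjusted p = 0.0714). It was -3.76 in group B (adjusted p = 0.211) and -3.46 in group C (adjusted p = 0.178), and none of the 3 passed an adjusted p of 0.05. Without group D replicate 3 the differences were -4.45, -5.18 and -4.88 and all 3 passed (adjusted p = 0.00323, 0.0016 and 0.00209 in limma). With arrays within background counted at their background, Gal was then at least 18.1-fold, 23.2-fold and 27.3-fold lower. The study itself had picked Gal from these arrays, so this gene is not independent evidence of a direction. The study also reported lower Gal mRNA by real-time PCR in all groups with CLA, which was not examined here.

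Vip encodes vasoactive intestinal peptide, which relaxes smooth muscle and acts on lymphocytes. Its levels were 5.53, 5.04 and 3.04 in group D, 2.86, 2.96 and 2.82 in A, 1.16, 0.37 and 0.00 in B and 2.66, 3.09 and 0.90 in C. All arrays of groups A and B lay below those of group D, and no array of group B rose above background. The mRNA was at least 3.70-fold lower in group B than in group D, counting group B at its background, with a fitted difference of -4.03 (standard error 0.73, limma adjusted p = 0.0916). Without group D replicate 3 the bound was 6.21-fold and the adjusted p was 0.000581. The differences in groups A and C were -1.65 (adjusted p = 0.136) and -2.32 (adjusted p = 0.177), and -2.41 and -3.08 without that array (adjusted p = 0.0249 and 0.00795 in limma). Vip was above background on 2 arrays of group A and 1 of group C.

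Npy encodes neuropeptide Y, which sympathetic nerves release with noradrenaline. It read 5.50, 5.02 and 4.39 in group D, 4.55, 4.48 and 4.84 in A, 4.54, 3.58 and 4.72 in B and 3.96, 3.73 and 3.87 in C. Group C lay wholly below group D, and groups A and B overlapped with it. The difference in group C was -1.12 (standard error 0.38, limma adjusted p = 0.186), and -1.41 without group D replicate 3 (adjusted p = 0.0208). In group A it was -0.34 (95% interval -1.16 to 0.47) and in group B -0.69 (-1.50 to 0.13). Without that array these were -0.64 and -0.98, and neither passed (adjusted p = 0.281 and 0.101).

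Tac1, the precursor gene of substance P, was close to background throughout. It exceeded background only in group D replicate 2, at 3.33, beside 1.58 and 2.14 in replicates 1 and 3. The other groups ranged from 0.41 to 2.83 in A, from 0.00 to 0.48 in B and from 0.00 to 0.76 in C, so that they hold only an upper bound and no fold change is given. The fitted differences from group D were -0.97, -2.09 and -2.00 in groups A, B and C, and none passed with all arrays or without group D replicate 3 (adjusted p = 0.386, 0.0761 and 0.0827 without it).

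The promoters of Gal, Vip and Tac1 are printed because these peptide genes share a short motif. Npy, Prph and Uchl1 also read highest in group D replicates 1 and 2 and lack that motif, and Tac1 exceeded background on 1 array only. The choice of these genes therefore shows no link between motif and level. RefSeq promoters of rat build GRCr8 were found for 7 of the 9 genes, not for Gap43 or Stmn2. The 250 bases before the start of the gene are given from 5′ to 3′ of the gene, with Gal on the minus strand at chr1:210084573-210084822, Vip on the plus strand at chr1:44470230-44470479 and Tac1 on the plus strand at chr4:36645333-36645582. Capitals mark TGACG or CGTCA, the core of the cAMP response element, and TATAAA or TTTATA, the letters of a TATA box, on either strand.
Gal: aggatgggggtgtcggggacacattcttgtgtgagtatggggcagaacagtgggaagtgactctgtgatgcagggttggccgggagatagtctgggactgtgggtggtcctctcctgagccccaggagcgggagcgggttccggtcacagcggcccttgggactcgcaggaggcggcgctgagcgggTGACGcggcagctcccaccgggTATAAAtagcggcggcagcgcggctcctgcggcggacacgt
Vip: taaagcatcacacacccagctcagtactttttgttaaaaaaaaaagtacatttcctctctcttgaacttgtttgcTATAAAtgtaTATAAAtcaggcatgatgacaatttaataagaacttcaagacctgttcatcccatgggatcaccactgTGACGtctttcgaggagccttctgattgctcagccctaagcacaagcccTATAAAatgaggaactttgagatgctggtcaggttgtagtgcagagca
Tac1: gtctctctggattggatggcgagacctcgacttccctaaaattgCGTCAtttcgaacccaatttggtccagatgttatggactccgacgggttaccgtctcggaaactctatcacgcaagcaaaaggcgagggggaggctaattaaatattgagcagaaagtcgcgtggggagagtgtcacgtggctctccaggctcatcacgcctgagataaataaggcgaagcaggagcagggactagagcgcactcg
TGACG began 63 bases before the start of Gal, 97 before that of Vip and, as its complement, 206 before that of Tac1. It was in none of the other 4 promoters and in 18.2% of 33469 promoters of this length. TATAAA was in the promoters of Gal, Vip, Prph and Uchl1 and in 12.9% of all. Such a match describes letters and does not show that a factor bound there.

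The genes of the axon came next. Prph encodes peripherin, an intermediate filament of peripheral axons. Its levels were 6.48, 6.35 and 3.93 in group D, 4.15, 5.07 and 4.36 in A, 4.37, 4.28 and 3.78 in B and 3.95, 3.74 and 3.77 in C. Replicates 1 and 2 of group D again exceeded all arrays with CLA and replicate 3 did not. With all arrays the differences of -1.06, -1.44 and -1.76 in groups A, B and C did not pass in limma (adjusted p = 0.222, 0.254 and 0.178). Without that replicate they were -1.90, -2.28 and -2.61, or 3.73-fold, 4.86-fold and 6.09-fold lower, and all passed (adjusted p = 0.00198, 0.000762 and 0.00028).

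Gap43 encodes a growth cone protein that nerves make during outgrowth and regeneration. Its brighter probe set read 5.79, 5.52 and 3.50 in group D, 3.23, 3.32 and 3.61 in A, 2.61, 3.65 and 1.34 in B and 2.92, 3.15 and 3.85 in C. Group D replicate 3 was lower than the highest array of each other group, and in group B 1 of 3 arrays was above background. The differences were -1.55, -2.40 and -1.63 in limma (adjusted p = 0.131, 0.207 and 0.238), and -2.28, -3.13 and -2.36 without that replicate, when all passed (adjusted p = 0.019, 0.0041 and 0.0178). The second probe set ranged from 0.00 to 2.12 and never exceeded background. It does not bear on the first.

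Stmn2 encodes a stathmin that destabilizes microtubules in growing axons, and its probe sets can be compared with each other in direction. The brighter read 5.66, 5.62 and 4.09 in group D and between 3.77 and 4.63 in the 9 arrays with CLA. The dimmer read 5.90, 5.72 and 3.54 in group D and between 2.14 and 4.06 in the others. Both were highest in group D replicates 1 and 2. With all arrays the brighter differed by -0.83, -0.95 and -0.91 in groups A, B and C and the dimmer by -1.76, -1.84 and -1.74, and none passed in limma. Without group D replicate 3 the brighter differed by -1.36, -1.47 and -1.44 (adjusted p = 0.0189, 0.015 and 0.0158) and the dimmer by -2.53, -2.60 and -2.51 (adjusted p = 0.00579, 0.00614 and 0.00682).

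Uchl1 encodes the abundant neuronal deubiquitinase PGP9.5, used to stain nerve fibres. It read 6.31, 6.44 and 3.89 in group D, 5.50, 4.72 and 5.67 in A, 4.94, 4.22 and 3.88 in B and 4.70, 5.38 and 4.10 in C. Of group A, 2 arrays were above all arrays of groups B and C, and group D replicate 3 was the second lowest of the 12. With all arrays the differences in groups A, B and C were -0.25, -1.20 and -0.82 and did not pass in limma (adjusted p = 0.83, 0.353 and 0.508). Without that replicate they were -2.04 in group B and -1.66 in group C, which passed (adjusted p = 0.00558 and 0.016), and -1.09 in group A, which did not (adjusted p = 0.0888).

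Syt1, the calcium sensor of synaptic vesicle release, had a narrower range. It read 3.49, 3.80 and 2.25 in group D, 3.58, 2.16 and 3.23 in A, 3.61, 2.97 and 3.56 in B and 2.54, 1.71 and 2.69 in C. Groups A, B and C each overlapped with group D. The differences from group D were -0.19 for group A (95% interval -1.41 to 1.03), 0.20 for group B (-1.02 to 1.42) and -0.87 for group C (-2.09 to 0.35). None passed in limma, also without group D replicate 3 (adjusted p = 0.49, 0.817 and 0.132). In group C its signal exceeded background on 1 of 3 arrays. The study reported Syt1 as lower in all groups with CLA, on the arrays and by real-time PCR. The array result was not seen in this fit, and the PCR was not examined here.

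Counted over the 9 genes, each by its probe set with the highest mean, 0 passed an adjusted p of 0.05 in limma in groups A, B and C against group D. Of all probe sets, 10.2%, 0.00966% and 0.029% were called lower there. At an unadjusted p under 0.05, 3, 5 and 6 genes were lower in groups A, B and C, where 14.8%, 7.2% and 8.27% of all probe sets were lower, and 0 genes were higher. All arrays lay below those of group D in 1, 2 and 3 of the genes, against 14.6%, 7.92% and 8.1% of all probe sets. The median differences of the genes in groups A, B and C were -0.97, -1.44 and -1.63, beside 0.07, -0.04 and -0.04 over all probe sets.

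Without group D replicate 3, 5 of the 9 genes were lower in group A (Gal, Vip, Prph, Gap43 and Stmn2), 6 in group B (these and Uchl1) and 7 in group C (these and Npy) at an adjusted p under 0.05 in limma. The background was then 10.9%, 7.82% and 9.13% of all probe sets. Arrays of the group all lay below the remaining 2 of group D in 7, 8 and 9 genes, against 21.3%, 25.7% and 26.2% of all probe sets. The medians were -1.35, -2.19 and -2.10. Leaving out any other single array gave 0 genes in each of the 3 comparisons. On the values as deposited, in which the median of all probe sets was itself -0.12, -0.55 and -0.70 in groups A, B and C, the medians of the genes were -1.20, -1.95 and -2.35. On that scale 0, 1 and 7 of the 9 genes passed, where 0.332% and 22.6% of all probe sets were called lower in groups B and C.

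**Figure D2:**
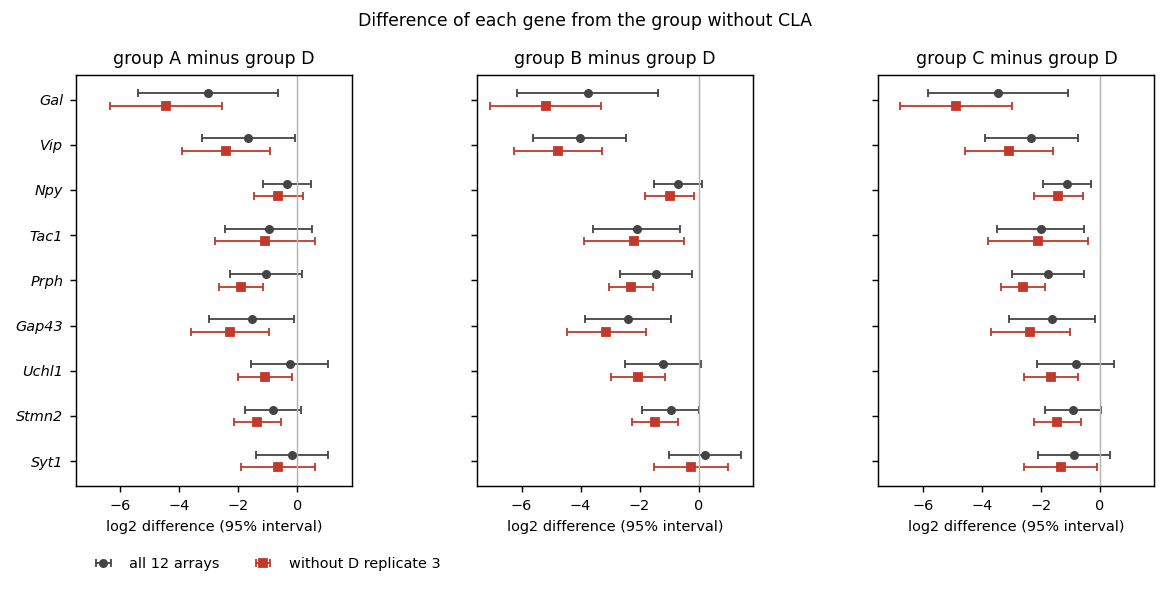
Difference of each gene from group D (log2, horizontal axis) in groups A, B and C, with 95% intervals from limma for all 12 arrays (grey circles) and without group D replicate 3 (red squares). Gal moves from -3.03 to -4.45 in group A when that array is left out, and Syt1 from -0.19 to -0.65.

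The route of CLA in suckling was addressed by group A against the mean of groups B and C. Group C, unlike group A, had no CLA in gestation, and the diet of the dams in suckling also differed. Route cannot be told apart from these in this comparison. Of the 9 genes 0 passed in limma, where 20.1% of all probe sets were higher in group A. By their brightest probe sets all 9 genes had a fitted difference above 0, the lowest being 0.10 for Stmn2, with a median of 0.56 beside 0.11 over all probe sets. Vip was higher in group A at an unadjusted p of 0.0319 (adjusted p = 0.0779), as were 24.5% of all probe sets. Without group D replicate 3 it passed (adjusted p = 0.0368), as did 22.8% of all probe sets. The 3 arrays of group A read between 2.82 and 2.96 for Vip, with 2 of them above background, whereas all 3 of group B and 2 of group C were within background, so no fold change is given.

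Exposure in gestation among gavaged pups was addressed by group B against group C. None of the 9 genes passed in limma, and 1 probe set of all did (0.00322%). The fitted difference of Vip was below 0 at an unadjusted p under 0.05, as were those of 1.96% of all probe sets, but with 0 of 3 arrays of group B and 1 of 3 of group C above background its size cannot be read. The arrays of Syt1 in group B all lay above those of group C (difference 1.07, 95% interval -0.15 to 2.29). The other genes differed by between -0.77 for Gap43 and 0.43 for Npy.

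The receptors of these peptides were read next. Of 13 receptor genes on the array, 2 were higher and 2 lower in group A against group D at an adjusted p under 0.05 in limma, and 0 passed in groups B and C. Of all probe sets in group A, 10.1% were called higher and 10.2% lower. Tacr2 also passed in group C without group D replicate 3 (adjusted p = 0.0342). Vipr1, the receptor of vasoactive intestinal peptide found on T cells, rose from 5.18 ± 0.26 in group D to 6.10 ± 0.32 in group A (SD, n = 3 each, difference 0.92, adjusted p = 0.0246). Adcyap1r1, which binds the related peptide PACAP more strongly, rose from 5.75 ± 0.37 to 6.62 ± 0.14 (difference 0.88, adjusted p = 0.0252). Leaving out group D replicate 3 ended that call (0.74, adjusted p = 0.0597). On the values as deposited neither rise passed (adjusted p = 0.256 for Vipr1 and 0.243 for Adcyap1r1).

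Npy1r, a receptor of neuropeptide Y, read 3.51, 4.42 and 3.85 in group D and was within background on all arrays of group A, so that it was at least 2.09-fold lower there (adjusted p = 0.0242 in limma). Tacr2, the receptor of neurokinin A, was within background in group A and above it on 1 of 3 arrays of group D, at 4.77, and was at least 1.03-fold lower (adjusted p = 0.0214). Galr1 was above background on 1 of 12 arrays, Galr3 on 2, Npy2r and Npy5r on 0 and Tacr3 on 4. Galr2, a galanin receptor, was above it on 8 arrays, with means of 3.72 in A, 3.69 in B, 2.31 in C and 2.76 in D, and no difference from group D passed (adjusted p = 0.334, 0.497 and 0.756). Vipr2 read 2.11 to 3.13 in group D, Tacr1 3.67 to 4.46 and Npy4r 2.90 to 4.56, and none of them passed against group D.

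The wider lists of neuronal genes were taken by function. They hold other neuropeptides, peptide processing, neuronal filaments, synaptic vesicle genes, autonomic neuron identity, the receptors, the other synaptotagmins and the relatives of Uchl1, in all 108 genes on the array. Against group D, 5 of the 108 were lower and 10 higher in group A in limma, shares of the list no larger than the 10.2% and 10.1% of all probe sets, and 0 passed in groups B and C. Without group D replicate 3 the counts were 11 lower and 11 higher in group A, whereas group B had 17 and 2 and group C 19 and 3, when 11%, 9.52% and 10.3% of all probe sets were higher. On the values as deposited, 5, 0 and 21 of the 108 genes were called in groups A, B and C, and the 5 of group A were Gfra3, Npy1r, Tacr2, Uchl3 and Uchl5. In group A 4 were lower and 1 higher, and all 21 of group C were lower. Of all probe sets, 0.332% and 22.6% were called lower in groups B and C on that scale, so the share of the list in group C was no larger.

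Of 16 other neuropeptides 0 passed in any group against group D, with medians of -0.16, -0.80 and -0.99. Without group D replicate 3, 2, 5 and 4 of them were lower in groups A, B and C, beside 10.9%, 7.82% and 9.13% of all probe sets. Cartpt, which encodes the CART peptide of enteric neurons, read 5.72, 5.80 and 4.15 in group D and had means of 3.55, 2.95 and 3.76 in groups A, B and C. It passed as lower in all 3 groups only without group D replicate 3 (adjusted p = 0.0137, 0.00457 and 0.0249 in limma). Of 12 genes of peptide processing and the dense core granule, Cpe was lower in group A. Cpe encodes carboxypeptidase E, which trims prohormones, and it fell from 8.78 ± 0.49 to 8.0 ± 0.33 (SD, n = 3 each, difference -0.78, adjusted p = 0.042 in limma). It did not pass in group B or C with all arrays (adjusted p = 0.236 and 0.147), and did in all 3 groups without group D replicate 3. The call in group A was lost on the values as deposited and with centring on the 75th percentile (adjusted p = 0.0639 and 0.0758). Scg2, a granin of dense core granules named after its values were seen, read 5.50, 5.46 and 1.03 in group D and was within background in groups A and C. It was called lower in none of the groups with all arrays, and in groups A, B and C without group D replicate 3 (adjusted p = 0.00101, 0.0089 and 0.000468 in limma). Of the 12 genes 2, 3 and 4 were then lower, beside the shares above, and 1, 0 and 0 higher, beside 11%, 9.52% and 10.3%. Scg3 passed as lower in groups B and C, whereas Chga, Chgb and Vgf passed in no group. The higher gene was Dbh (adjusted p = 0.0446 in limma), above background on 4 of 12 arrays.

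Of 14 genes of neuronal filaments and microtubules, 1 was higher in group A and 0 lower in any group with all arrays. That gene was Crmp1, a collapsin response mediator, which rose from 5.75 ± 0.16 to 6.83 ± 0.18 (difference 1.07, standard error 0.20, adjusted p = 0.00261 in limma, and 0.0584 on the values as deposited). Without group D replicate 3, 2, 5 and 5 of the 14 were lower in groups A, B and C and 1, 0 and 1 higher. Of all probe sets, 10.9%, 7.82% and 9.13% were then lower and 11%, 9.52% and 10.3% higher. The medians of the 14 genes were then -0.87, -1.42 and -1.39. Of 17 synaptic vesicle genes Vamp2, a vesicle fusion protein of many secretory cells, rose from 6.52 ± 0.18 to 7.32 ± 0.10 in group A (difference 0.80, adjusted p = 0.00239, and 0.112 on the values as deposited). Snap25, its neuronal partner in fusion and also named after its values were seen, read 5.61, 5.56 and 0.33 in group D, and between 0.00 and 2.86 in the other groups. Snap25 passed in no group with all arrays, and as lower in groups A, B and C without group D replicate 3 (adjusted p = 0.00553, 0.0128 and 0.00181 in limma). It was the only one of the 17 lower there, and 2, 1 and 1 were higher, beside the shares of all probe sets given above. Vamp1, another vesicle gene named after its values were seen, was higher in all 3 groups without that array. Its differences were 1.07, 1.33 and 0.97 (adjusted p = 0.00567, 0.00195 and 0.0115 in limma), and it was above background on 12 arrays. None of 15 other synaptotagmins passed against group D with all arrays, and 1 was lower in group C without group D replicate 3.

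Among 18 genes of autonomic neuron identity 5 were higher in group A in limma, beside 10.1% of all probe sets. They were Ret, the receptor of the neurotrophic factor GDNF (difference 0.88, adjusted p = 0.00814), its partners Gfra2 (0.85, adjusted p = 0.00468) and Gfra3 (1.02, adjusted p = 0.000806), the neurotrophin receptor Ngfr (0.90, adjusted p = 0.0197) and Gata3 (1.00, adjusted p = 0.000748). On the values as deposited only Gfra3 of these passed (adjusted p = 0.0489), the others lying between 0.0547 and 0.273. Gata3 is also a master gene of T helper cells and Ngfr is also carried by stromal cells, so these names do not mark neurons alone in a lymph node. Ngfr was lower in groups B and C without group D replicate 3 (-0.83 and -0.82, adjusted p = 0.0345 and 0.0341). Of the 18 genes, 8 were above background on all 12 arrays, 6 on 9 to 11 and 4 on 6 or fewer. Elavl3, a neuronal RNA-binding gene, and Th, which makes catecholamines, were above it on all 12, Nos1 on 10, Elavl4 on 6 and Chat, which makes acetylcholine, on 2. The relatives of Uchl1 went both ways in group A: Uchl3 differed by -1.17 and Uchl5 by -0.91, while Bap1 differed by 0.56 (adjusted p = 7.02e-05, 0.00238 and 0.00615 in limma). In the fit without group D replicate 3, Uchl5 also passed as higher in groups B and C (0.70 and 0.67, adjusted p = 0.00271 and 0.0032) and Bap1 as lower (-0.38 and -0.36, adjusted p = 0.02 and 0.0221). The call of Bap1 in group A was lost on the values as deposited (adjusted p = 0.225).

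Against the mean of groups B and C, 21 of the 108 genes were higher and 2 lower in group A in limma, where 20.1% and 17% of all probe sets were. The 12 genes in the plot of related genes were chosen for passing this comparison and that of group A with group D. Each lay outside the range of groups B and C on all 3 arrays of group A, with the exceptions of Ret and Vipr1. That separation follows in part from the choice and does not describe the neuronal lists as a whole. Group B against group C gave 0 of 108.

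**Figure D3:**
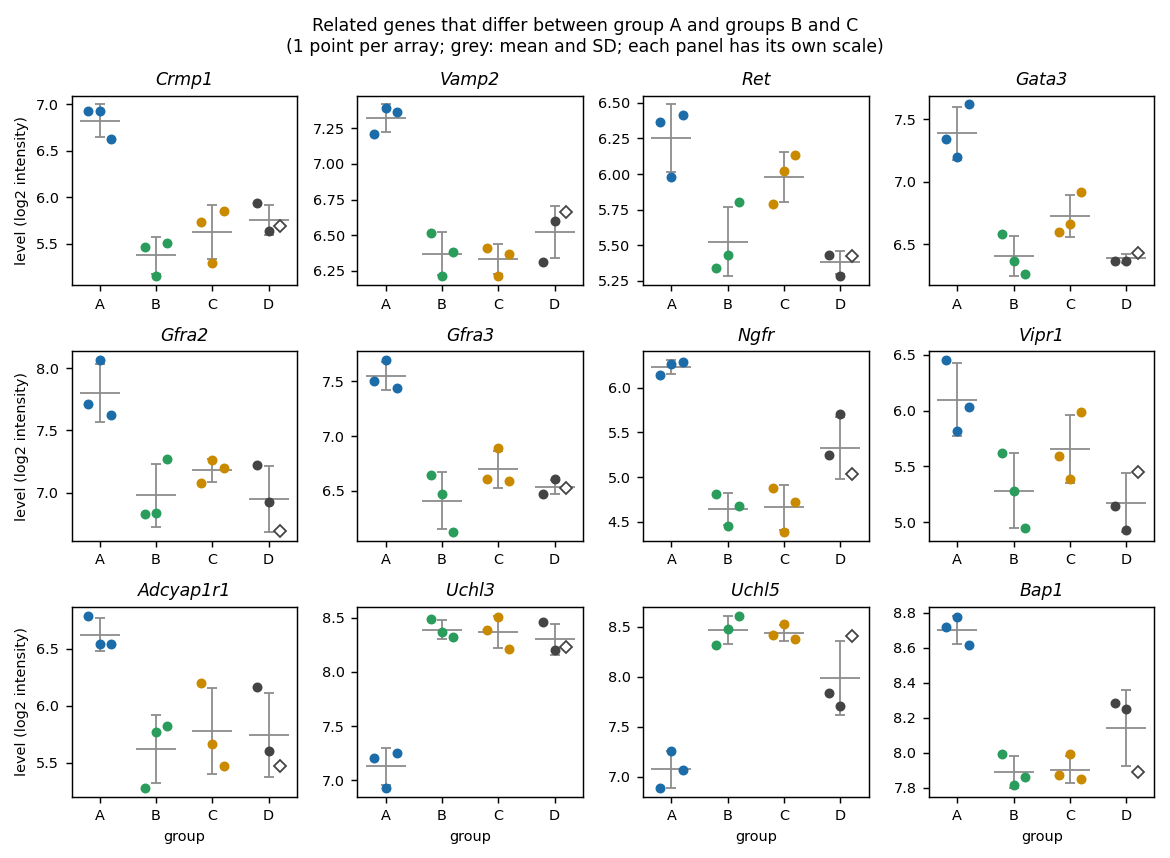
Level (log2 intensity, vertical axis, a scale of its own in each panel) of 12 related genes in each array, with grey bars for mean and SD. The mean of group A lies above those of groups B and C except for Uchl3 and Uchl5, where it lies below, and Ngfr is at 6.23 in group A and 4.65 and 4.66 in groups B and C.

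Smooth muscle markers were high on the same arrays as the 9 genes. The summed linear intensity of the 9 was 566 and 556 in group D replicates 1 and 2 and 107 in replicate 3, and groups A, B and C spanned 148 to 153, 87.2 to 131 and 95.9 to 113. Of 12 smooth muscle genes, 10 to 12 were above background on each array, and their sum was 10430 and 10840 in group D replicates 1 and 2. It was 2031 in replicate 3, and groups A, B and C spanned 2725 to 3002, 1792 to 2099 and 1723 to 1907. The high arrays were thus the same 2. In groups A, B and C, 4, 0 and 0 of these genes were lower in limma with all arrays and 8, 11 and 11 without group D replicate 3, beside 10.2%, 0.00966% and 0.029% of all probe sets with that array and 10.9%, 7.82% and 9.13% without it. The enteric actin Actg2 read 11.41, 11.17 and 5.88 in group D, and differed by -3.84 in group A (adjusted p = 0.0402), and by -5.65, -6.62 and -6.80 in groups A, B and C without group D replicate 3 (adjusted p = 0.000249, 0.000115 and 8.94e-05).

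The sum of 7 mesothelium genes, 6 or 7 of them above background, was 964 and 1023 in group D replicates 1 and 2 and 560 in replicate 3, above all other arrays at 249 to 404. Krt8, a keratin of simple epithelia and mesothelium, passed as lower in each group with CLA when no array was left out (differences -1.77, -2.46 and -2.33, adjusted p = 0.000134, 0.00137 and 0.00133 in limma). With all arrays 3, 1 and 1 of the 7 were lower in groups A, B and C. Of all probe sets, 10.2%, 0.00966% and 0.029% were. Counts of 5, 5 and 6 came without group D replicate 3, beside 10.9%, 7.82% and 9.13% of all probe sets. In that replicate Krt8 (7.86) and Krt19 (7.21) lay above all arrays with CLA. Msln (4.49), Upk1b (3.99), Wt1 (4.28), Krt18 (6.27) and Lrrn4 (5.48) did not. Gut epithelium gave another order, with a sum over 8 genes of 89.7, 377 and 706 in group D replicates 1, 2 and 3 and 52.5 to 89.7 elsewhere, and its gene Fabp2 sat at the floor in group D replicate 1 and in group A. The 11 glial and Schwann cell genes summed to 685, 1023 and 1143 in group D and 486 to 815 elsewhere, with Foxd3 and Fabp7 within background on all 12 arrays. Of the 11, 1, 0 and 1 were lower in groups A, B and C and 0 higher, with medians of -0.13, -0.39 and -0.62. The gene called in both was the sodium channel Scn7a (-3.14 and -2.81, adjusted p = 0.000232 and 0.0305), which passed in group B as well without group D replicate 3 (-2.23, adjusted p = 0.00505). The 10 leukocyte genes were above background on every array and summed to 8908, 7981 and 10560 in group D. Groups A, B and C spanned 7499 to 9345, 10370 to 10420 and 10350 to 11170. In limma 3, 0 and 0 of the 10 were lower in groups A, B and C, beside the shares given above, and 0 were higher. Leaving out group D replicate 3 gave 2 lower in group A and 3 higher in each of groups B and C. Of all probe sets, 10.9% were then lower in group A and 9.52% and 10.3% higher in groups B and C. The 7 adipocyte genes summed to 4636 to 6804 in group D and 3142 to 6301 elsewhere, and the 5 endocrine and chromaffin genes to 13.9 to 61.5 on any array.

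RNA quality can be read from a ratio of probe sets at both ends of a transcript. The 3′ to 5′ signal ratio of Gapdh was 1.06 and 1.11 in group D replicates 1 and 2, 1.22 in replicate 3, 1.21 to 1.53 in group A and 1.10 to 1.28 in groups B and C. That of actin was 1.30 in group D replicate 1, the lowest of the 12 arrays, 1.498 in replicate 2 and 1.905 in replicate 3, the highest. That of hexokinase was 2.53, 1.845 and 1.92 in group D and 1.62 to 4.96 elsewhere. The array medians as deposited were 34.3 to 38.5 in group D and 27.6 to 32.9, 19.3 to 30.9 and 20.2 to 27 in groups A, B and C. The part of smooth muscle, mesothelium, gut epithelium, glia, leukocytes, RNA quality or array brightness in the levels of the 9 genes was not tested.

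**Figure D4:**
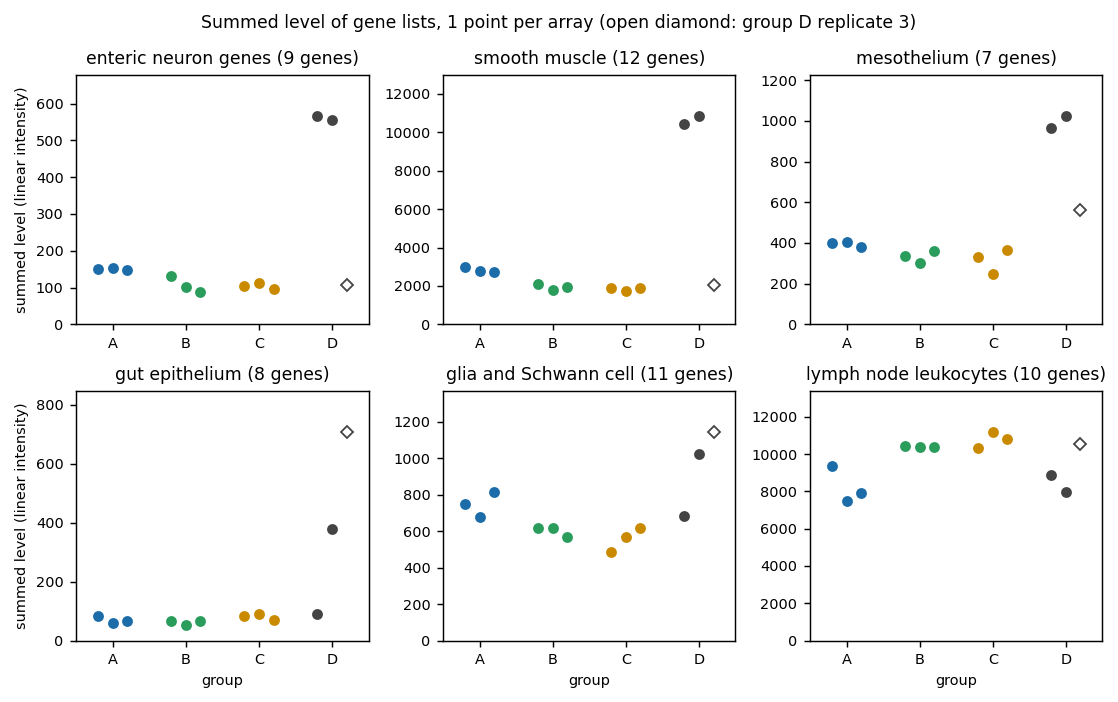
Summed level of each gene list (linear intensity, vertical axis from 0) in each array, by group. The 9 genes and smooth muscle are high in group D replicates 1 and 2 (566 and 556, 10430 and 10840) and low in replicate 3, the open diamond, whereas gut epithelium and glia are highest in replicate 3.

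The genes most like these in pattern were sought among 12048 genes by Pearson's r over the 12 arrays, which share the high group D replicates 1 and 2. For Gal they were Cartpt (r = 0.947, and 0.839 over the 9 arrays with CLA), the junctophilin Jph2 (0.94 and 0.824), Bmper (0.912 and 0.791), the sterol enzyme Msmo1 (0.894 and 0.528) and the myosin light chain kinase Mylk (0.893 and 0.291). For the mean of the 9 genes they were Mylk (0.965 and 0.745), Schip1 (0.96 and 0.817), the smooth muscle myosin light chain Myl9 (0.958 and 0.831), Map1b (0.945 and 0.819) and Cryab (0.944 and 0.775). Mylk read 10.72 and 10.79 in group D replicates 1 and 2 and 9.22 in replicate 3, against means of 9.41, 9.04 and 9.04 in groups A, B and C. Map1b, a microtubule protein of growing axons, read 6.80, 7.47 and 6.0 in group D against means of 5.97, 5.43 and 5.63. Neither Mylk nor Map1b passed against group D with all arrays. Without group D replicate 3 both passed as lower in groups A, B and C. The adjusted p in limma was then 4.07e-06, 3.36e-06 and 2.6e-06 for Mylk and 0.00603, 0.000721 and 0.00146 for Map1b.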

How the data were processed

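RNA of mesenteric lymph nodes from 12 pups was hybridized to Affymetrix Rat Genome 230 2.0 arrays. The authors deposited MAS5 signal intensity values on a linear scale, 1 per probe set and array, not scaled between arrays. The file held 31099 probe sets and 30 zeros, which took the smallest positive value of 0.1. Log2 values were quantile normalized over the 12 arrays and then raised to a linear floor of 1. The 57 control probe sets were left out, and of 31042 tested, 20826 carried 1 symbol, 436 several and 9780 none. Groups were compared with limma 3.58.1 (R 4.3.3), fitting the 4 group means together with trended moderation and Benjamini-Hochberg adjustment over all probe sets, two-sided. A gene was counted by its probe set with the highest mean. Background was the 95th percentile of 27 unspiked control probe sets. The number of arrays limits the precision, and an exact permutation test of 3 against 3 cannot go below p = 0.1. The p-values measure the spread between these pups, whose litters are not known. The fit was tested on simulated data for group A against group D over 31042 probe sets. It recovered 25 of 50 changed at 2-fold, 45 at 3-fold, 46 at 4-fold and 48 at 8-fold, with 8 false calls. No rate was obtained at the signal level of the genes followed here. The rates above therefore cannot be carried over to genes this dim, and the recovery for the genes followed here is not known. By the probe set with the highest mean, these genes ran from a mean log2 level of 1.085 for Tac1 to 4.978 for Uchl1.

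The 9 genes and the lists were chosen with earlier results of these data known, and Gal, Syt1, Gap43, Prph and Stmn2 are among genes the study selected on these arrays, so their directions are not independent evidence. Named from the neuronal lists were genes at an adjusted p under 0.05 against group D, at most 6 per list by size of difference. All receptors, all genes of lists of 5 or fewer, and the 5 genes most alike were also named. Other genes were named outside this rule, with their values known. Of the cell type lists only some of the genes that passed are named. Alternatives were no trend, only the groups compared, a floor of 32, a filter on the dimmest 40% of probe sets, scaling by the 75th percentile, no scaling (the values as deposited), an unadjusted p with a fold of 2, a replicate block, any probe set of a gene, and leaving out each array. Symbols and promoters came from RefSeq tables of rat assembly GRCr8.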

Additional observations from a re-analysis of the deposited data

Results flagged for a closer look

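Of the neuronal lists, 23 genes differed between group A (CLA by milk) and the mean of groups B and C (CLA by gavage) at an adjusted p under 0.05 in limma. The 12 of them that also differed between groups A and D are given. Values are log2 differences of group A minus that mean. Among genes of the neuron they were 1.33 for Crmp1 (adjusted p = 9.23e-05), 0.97 for Vamp2 (9.3e-05), 0.50 for Ret (0.0371), 0.82 for Gata3 (0.000409), 0.72 for Gfra2 (0.00244), 1.00 for Gfra3 (0.000129) and 1.57 for Ngfr (0.000101). Among receptors they were 0.63 for Vipr1 (0.0442) and 0.92 for Adcyap1r1 (0.00453). Among the relatives of Uchl1 they were -1.25 for Uchl3 (4.67e-06), -1.38 for Uchl5 (1.94e-05) and 0.80 for Bap1 (8.74e-05). Of all probe sets, 20.1% were higher and 17% lower in group A in the same comparison. The differences kept their sign on the values as deposited and with centring on the 75th percentile, where Ret and Vipr1 no longer passed (adjusted p = 0.0769 and 0.0893). None of the 9 neuronal genes themselves passed this comparison with all arrays.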

How the results depend on the processing

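Of the 9 neuronal genes, 0 passed in any comparison with all arrays. Leaving out each array in turn gave 0 to 5, 0 to 6 and 0 to 7 against group D in groups A, B and C, 0 to 1 in group A against groups B and C and 0 to 0 in group B against group C, and the counts above 0 all came without group D replicate 3. On the values as deposited, 1 passed in group B (Vip) and 7 in group C, all but Uchl1 and Syt1. Of all probe sets, 0.332% and 22.6% were called lower in groups B and C on that scale. With an unadjusted p and a fold of 2 the counts were 3, 5 and 6 in groups A, B and C, and 1 each when group A was set against groups B and C, and group B against group C. In a fit of only the groups compared, 1 passed in group A against groups B and C (Vip).

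Of the 108 genes of the neuronal lists, 15, 0 and 0 passed against group D in groups A, B and C, 23 in group A against groups B and C and 0 in group B against group C. Leaving out each array gave 10 to 22, 0 to 19, 0 to 22, 14 to 28 and 0 to 0. The fewest against groups B and C were 14 and 15, without group A replicates 1 and 2, and the fewest in group A were 10, without group D replicate 2. On the values as deposited, 5 passed in group A and 21 in group C, where 22.6% of all probe sets were called lower in group C. With an unadjusted p and a fold of 2 there were 13 in group B, 15 in group C and 7 in group B against group C.

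Samples of the same replicate number showed little shared deviation (r between -0.02 and 0.08 over 18 pairs, none above 0.1). The median r was 0.0102, beside -0.00684 over 36 pairs of other numbers. The numbers were not used as pairs in the main fit. Such values do not show whether pups of 1 number shared a litter or a day. With the replicate number as a block, 1 gene passed in group A against group D (Gal) and 1 in group A against groups B and C (Vip).

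Over single probe sets and comparisons, 940 values kept their direction and side of the threshold, 35 changed sign without a call, 35 passed only under an alternative and 0 called values reversed. Of those against group D, differences changed sign for Syt1 in groups A and B, Uchl1 and the dim probe set of Gap43 in group A. The causes were not tested. Signals near background limit Tac1, Vip, Syt1 and Gal in the groups with CLA.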
